A study of Mus musculus with 6 samples.

Results

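Krüppel-like factors are transcription factors that bind GC-rich and CACCC-containing DNA through zinc fingers at the end of the protein. The fingers are much alike across the family, and members differ in the cofactors they recruit and in the signals that induce them. Klf10, Klf11, Klf9 and Klf13 bring in the Sin3 corepressor, Klf2, Klf4, Klf5, Klf6 and Klf7 mostly work with histone acetyltransferases, and in the nervous system the family is known for its control of neurite growth and of the response to hormones. The 10 genes described here are members of the family that were picked with their values in these data known. All 10 were found among the 19938 genes of the array, each read by 1 probe set.

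The hippocampus was taken from 70-day-old male C57BL/6J mice that had been injected under the skin as pups with ethanol in saline or with saline alone. Ethanol mice received 2.5 g/kg at each injection, given 2 times a day on postnatal days 4 and 7, and saline mice were their sex- and weight-matched littermates injected at the same times. RNA of 3 mice that were not littermates was pooled for each Affymetrix Mouse Gene 1.0 ST array, giving 3 ethanol and 3 saline arrays that stand for 9 mice each. The question was which genes still differ in adulthood after exposure at the time when synapses form. Values are RMA expression values on the log2 scale, so that a difference of 1 is a doubling. Because probe sets differ in how strongly they bind, the level of one gene was not set against that of another.

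The 10 genes were picked with their ethanol and saline values known, so their differences are given with no test. Counts at an unadjusted p under 0.05 in limma are descriptions for these genes. Of the 23410 probe sets tested, 1202 passed that threshold (5.13%) and 0 passed after Benjamini-Hochberg adjustment (limma, lowest adjusted p = 0.931). The methods' t-test passed 1161 probe sets unadjusted and 0 after adjustment. Markers of neighbouring tissue differed between pools. The thalamus average was higher in every ethanol pool than in any saline pool. The choroid plexus average did not follow the groups, since ethanol pool 2 was the lowest of all pools. Relative to the mean of the saline pools, the average of 14 thalamus markers was 0.69, 0.27 and 0.12 for ethanol pools 1, 2 and 3, against -0.025 to 0.025 for the saline pools. The average of 15 choroid plexus markers was 1.09, -0.28 and 0.66 for ethanol pools 1, 2 and 3, against -0.16 to 0.19 for the saline pools. Of the thalamus markers 10 of 14 passed unadjusted and were higher, where 2.8% of all genes were. Their count was 2 of 14 in the methods' t-test and 6 of 14 without saline pool 3. Of the choroid plexus markers 3 of 15 passed and were higher. Their count was 0 of 15 in the methods' t-test, 15 of 15 without ethanol pool 2, and 0 of 15 without ethanol pool 1 or 3 or saline pool 1 or 2. Both lists were chosen with earlier results of these data known, so the counts are descriptions. The thalamus list holds Tcf7l2 and Slitrk6, which the paper lists as upregulated after ethanol. Of the 14 thalamus markers, 4 had means no higher than those of genes largely silent in brain, here called the level of receptor genes (5.37, below which lie 95% of the olfactory and vomeronasal receptor genes). The average of 12 hippocampal neuron markers lay between -0.025 and 0.038 of the saline mean in every pool, and 0 of 12 passed. Single markers spread more widely, and Prox1 and Spink8 are named for their values. Prox1 was 9.57 in ethanol pool 3, against 9.80 to 9.87 in the saline pools. Spink8 was 8.43 in ethanol pool 3, within the range of its saline pools (8.05 to 8.45). Of the 12 markers, Camk2a, a kinase of excitatory neurons, differed by 0.025 ± 0.037 (SE). Zbtb20, a regulator of hippocampal neuron identity, differed by -0.06 ± 0.08. The part that these markers have in the values of the Krüppel-like factors was not tested. In tissue of mixed cell types, fewer cells of a type and less RNA per cell cannot be told apart.

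The DNA before the start sites was searched for the elements that the family itself and a few inducing signals are known to use. RefSeq promoters of assembly GRCm38.p6 were matched for 8 of the 10 genes. Klf5 and Klf10 had no match, so the shares below do not cover them. In the 250 bases before the start site, the GC box (GGGCGG or CCGCCC, bound by Sp and Krüppel-like factors) occurred in 7 of the 8, against 32.7% of all 32851 promoters of that length. The CACCC box (CACCC or GGGTG), whose matches can overlap a GC box, occurred in 5 of 8, against 52% of all. The E-box CACGTG, which reads the same on both strands and is the element of the clock proteins CLOCK and BMAL1, occurred in 4 of 8 (Klf4, Klf6, Klf11 and Klf15), against 6.02% of all. The CCAAT box (CCAAT or ATTGG) occurred in 5 of 8, against 33.8% of all, while TGACGTCA (the cyclic AMP response element, the same on both strands) and the TATA box (TATAAA or TTTATA) occurred in 0 of 8, against 1.55% and 12.4% of all. The 8 windows held 59.2% to 76.8% G and C, against a median of 52.4% over all promoters. These matches are descriptions of the letters, with no test. The windows of Klf4 and Klf15 are shown because these genes, with Klf10, had the largest differences between groups, that of Klf11 because it is the close relative of Klf10, and that of Klf9 as the one with no GC box. Capitals mark GC boxes, CACCC boxes and E-boxes, and sequences run 5′ to 3′ on the strand of the gene.
Klf4, chr4:55532476-55532725, minus strand: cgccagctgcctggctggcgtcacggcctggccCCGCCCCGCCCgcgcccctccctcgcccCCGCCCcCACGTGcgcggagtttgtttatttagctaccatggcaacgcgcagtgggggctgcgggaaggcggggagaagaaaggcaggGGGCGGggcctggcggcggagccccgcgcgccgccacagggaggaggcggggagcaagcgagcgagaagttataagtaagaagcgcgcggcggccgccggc
Klf15, chr6:90462326-90462575, plus strand: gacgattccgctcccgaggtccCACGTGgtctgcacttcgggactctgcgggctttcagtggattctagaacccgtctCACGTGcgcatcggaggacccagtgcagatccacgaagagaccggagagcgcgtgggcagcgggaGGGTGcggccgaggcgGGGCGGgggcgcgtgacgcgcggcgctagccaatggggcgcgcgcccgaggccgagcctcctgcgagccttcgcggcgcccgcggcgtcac
Klf11, chr12:24651121-24651370, plus strand: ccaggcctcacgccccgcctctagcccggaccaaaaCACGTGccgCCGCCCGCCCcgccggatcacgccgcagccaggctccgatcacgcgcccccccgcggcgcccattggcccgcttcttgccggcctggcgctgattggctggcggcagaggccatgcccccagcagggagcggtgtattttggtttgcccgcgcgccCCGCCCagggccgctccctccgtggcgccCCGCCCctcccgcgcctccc
Klf9, chr19:23140976-23141225, plus strand: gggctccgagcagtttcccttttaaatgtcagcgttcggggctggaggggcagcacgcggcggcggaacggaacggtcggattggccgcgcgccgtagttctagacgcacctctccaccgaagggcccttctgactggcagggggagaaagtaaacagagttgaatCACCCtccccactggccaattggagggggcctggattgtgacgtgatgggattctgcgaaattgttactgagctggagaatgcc
The E-box of Klf4 begins 182 bases before the start site, next to a GC box at 189, and the window holds 4 GC boxes. Klf15 has its pair of E-boxes at 228 and 172 bases. Klf11 has 4 GC boxes and 1 E-box, at 214 bases. Klf9 has 1 CACCC box, at 84 bases, and 3 CCAAT boxes.

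Of the 10 genes, 7 had a lower mean after ethanol than after saline, where 49.9% of all genes did. The median difference was -0.026 on the log2 scale, against 0.00014 over all genes. At the unadjusted threshold 1 gene was higher (Klf4) and 2 were lower (Klf10 and Klf15), where 5.22% of all genes passed (2.8% of all genes higher and 2.41% of all genes lower). Only Klf10 passed in the methods' t-test. Klf15 also did not pass without ethanol pool 1 or 2 or without saline pool 1 or 2, nor Klf4 without ethanol pool 1 or 3 or without saline pool 1 or 3. The ethanol and saline pools did not overlap in 1 gene, Klf10, where 10.4% of all genes did not overlap, 5.09% with the ethanol pools lower. Since the genes were chosen on the same contrast, nothing is read from these shares. Relative to saline, the average of the 10 genes was -0.053, -0.027 and -0.027 for ethanol pools 1, 2 and 3, against 0.041, -0.012 and -0.028 for saline pools 1, 2 and 3. Ethanol pools 2 and 3 thus lay level with saline pool 3, and saline pool 1 was the highest. In 5 of the 10 genes the highest of the 6 values was that of saline pool 1.

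**Figure D1:**
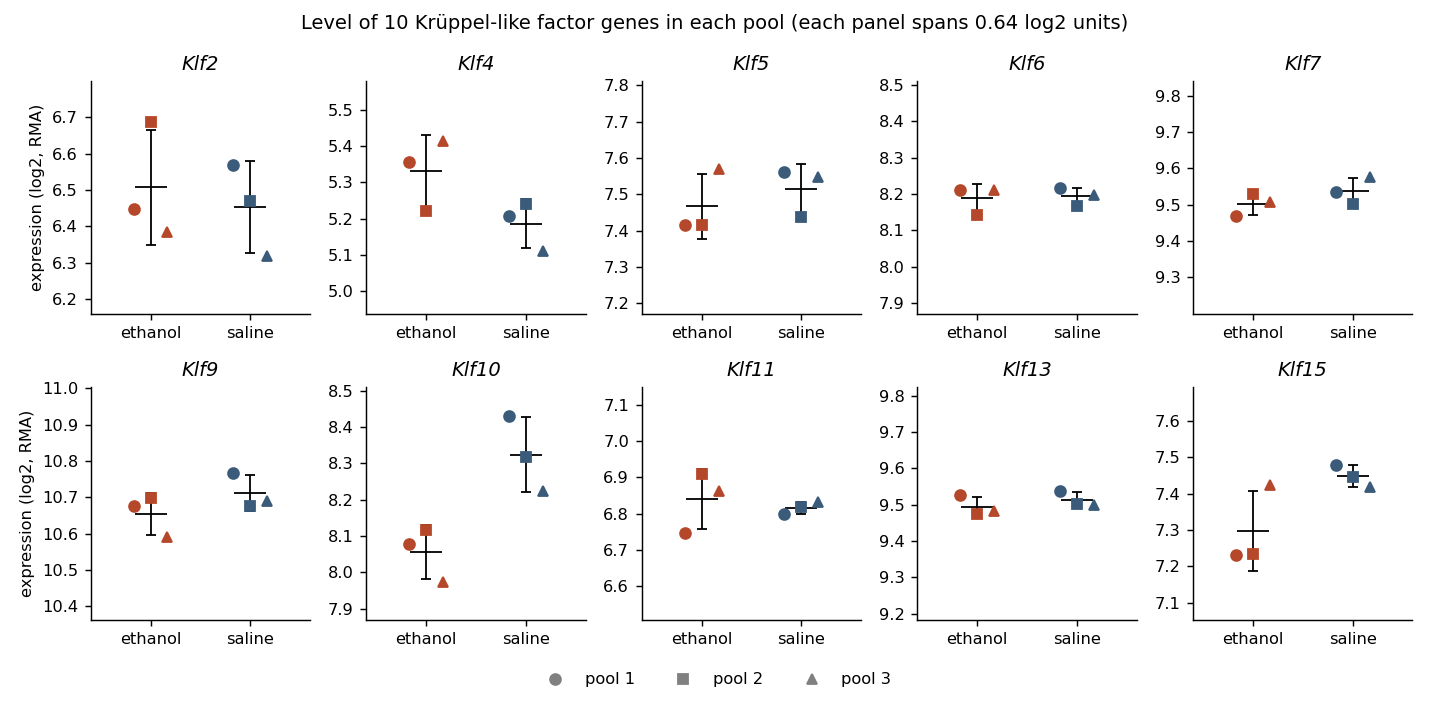
Expression (log2, RMA) of each of the 10 genes in each pool, with ethanol pools at the left and saline pools at the right of every panel, and the mean ± SD as a black bar. The panels span the same range, and Klf10 alone has all ethanol pools (7.97 to 8.12) below all saline pools (8.22 to 8.43).

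Klf10 and Klf11 were first found as early genes induced by transforming growth factor beta, and both repress transcription through Sin3. Klf10 had values of 8.08, 8.12 and 7.97 in ethanol pools 1, 2 and 3, against 8.43, 8.32 and 8.22 in saline pools 1, 2 and 3. Every ethanol pool lay below every saline pool, and the gap between the nearest pools was smaller than the range of the saline pools (0.21). The difference of the means was -0.27 ± 0.06 (SE), or 0.83 times the saline level, the largest among the 10 genes in either direction. Klf11 had values of 6.75, 6.91 and 6.86 in ethanol pools 1, 2 and 3, against 6.80, 6.82 and 6.83 in saline pools 1, 2 and 3. The ethanol pools of Klf11 surrounded the saline pools, whose SD was 0.017 against 0.083 in the ethanol pools. Its difference was 0.024 ± 0.049.

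Klf9 and Klf13 are a closely related pair. Klf9 is induced by thyroid hormone and glucocorticoids in neurons, and in mice it is needed for the late maturation of dentate granule cells, while Klf13 is known as a regulator of chemokine expression in lymphocytes. Klf9 had values of 10.68, 10.70 and 10.59 in ethanol pools 1, 2 and 3, against 10.77, 10.67 and 10.69 in saline pools 1, 2 and 3. The pools overlapped, with ethanol pool 3 the lowest and saline pool 1 the highest, and the difference was -0.056 ± 0.047. Klf13 had values from 9.47 to 9.53 in the ethanol pools, against 9.50 to 9.54 in the saline pools. Its difference was -0.017 ± 0.038, and its SD between pools (0.025) was at percentile 6.21 of all genes, the lowest of the 10.

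Klf15, a regulator of glucose and amino acid metabolism that follows feeding, the clock and glucocorticoids, had values of 7.23, 7.24 and 7.42 in ethanol pools 1, 2 and 3. In saline pools 1, 2 and 3 it had 7.48, 7.45 and 7.42. Ethanol pools 1 and 2 lay below all saline pools, and ethanol pool 3 lay within their range. The difference was -0.15 ± 0.06, or 0.90 times the saline level. Without ethanol pool 3 it was -0.21, and without ethanol pool 1 it was -0.12.

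Klf2 and Klf4 are the factors through which vessel endothelium responds to blood flow, and Klf4 is also a reprogramming factor and restrains axon growth in mouse retinal ganglion cells. Klf4 had values of 5.36, 5.22 and 5.41 in ethanol pools 1, 2 and 3, against 5.21, 5.24 and 5.11 in saline pools 1, 2 and 3. Ethanol pools 1 and 3 lay above all saline pools and ethanol pool 2 below saline pool 2. The difference was 0.14 ± 0.06, or 1.10 times the saline level, but the mean of 5.26 put Klf4, alone among the 10, at the level of receptor genes. The ethanol pools 1 and 3 in which Klf4 was high were also those in which the choroid plexus markers were high. Among the saline pools, pool 3 had the highest choroid plexus average (0.19 relative to saline) and the lowest Klf4 value (5.11). The part of the choroid plexus markers in the Klf4 value was not tested. Klf2 had values of 6.45, 6.69 and 6.38 in ethanol pools 1, 2 and 3, against 6.57, 6.47 and 6.32 in saline pools 1, 2 and 3. Its pools overlapped widely, with an SD between pools of 0.14 that was at percentile 96.1 of all genes, and its difference was 0.055 ± 0.088. Endothelial markers had a median difference of -0.036 and 0 of 13 passed (the 2 with the highest means, the glucose transporter Slc2a1 and the membrane protein Itm2a, at 0.0058 ± 0.045 and -0.05 ± 0.06), and relative to saline their average was 0.012, -0.039 and -0.080 for ethanol pools 1, 2 and 3, against -0.027, 0.040 and -0.013 for saline pools 1, 2 and 3.

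Klf5, Klf6 and Klf7 are activators, of which Klf5 is known from proliferating epithelium and smooth muscle, Klf6 from wound responses and, in zebrafish, from regrowth of optic axons, and Klf7 from axon outgrowth of mouse neurons. Klf5 had values of 7.42, 7.42 and 7.57 in ethanol pools 1, 2 and 3, against 7.56, 7.44 and 7.55 in saline pools 1, 2 and 3. Its highest and its lowest pool were both ethanol pools, and the difference was -0.048 ± 0.057. Klf6 had values from 8.14 to 8.21 in the ethanol pools, against 8.17 to 8.22 in the saline pools, with a difference of -0.0057 ± 0.040. Klf7 had values of 9.47, 9.53 and 9.51 in ethanol pools 1, 2 and 3, against 9.54, 9.50 and 9.58 in saline pools 1, 2 and 3, with a difference of -0.035 ± 0.040. The pools of the groups overlapped in all 3 genes.

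**Figure D2:**
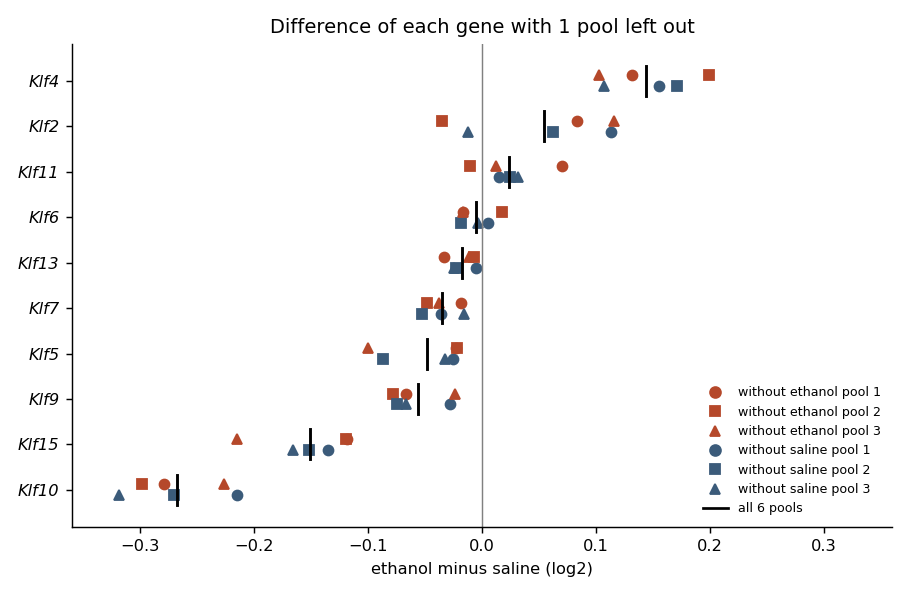
Ethanol minus saline difference (log2) of each of the 10 genes with all 6 pools (black bar) and with 1 pool left out (symbols). Klf10 stays between -0.32 and -0.22 and Klf4 between 0.10 and 0.20, while symbols of Klf2, Klf6 and Klf11 lie on both sides of 0.

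With each pool left out in turn, Klf10 ranged from -0.32 (without saline pool 3) to -0.22 (without saline pool 1) and had the lowest difference of the 10 genes each time. Klf15 ranged from -0.21 to -0.12 and Klf4 from 0.10 to 0.20. The sign of Klf2 turned without ethanol pool 2 or saline pool 3, reaching -0.036 without ethanol pool 2. The sign of Klf11 turned without ethanol pool 2 (-0.011), and that of Klf6 turned in 2 of the 6 cases, up to 0.017. The other 4 genes (Klf5, Klf7, Klf9 and Klf13) kept a mean below that of saline in each case, at -0.10 to -0.005.

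The remaining 7 Krüppel-like factors of the array were tested, and 0 passed in limma, where 5.22% of all genes did. Their median difference was -6.3e-05, against 0.00014 over all genes. Klf3, Klf8 and Klf12 repress through the corepressor CtBP. Klf8 had values of 6.67, 6.66 and 6.69 in ethanol pools 1, 2 and 3, against 6.64, 6.54 and 6.58 in saline pools 1, 2 and 3. Its pools did not overlap, as in 5.35% of all genes with the ethanol pools higher, and its difference of 0.09 ± 0.04 did not pass (limma, unadjusted p = 0.069, adjusted p = 0.931), although it did in the methods' t-test. Klf3 differed by -6.3e-05 ± 0.037 and Klf12 by -0.026 ± 0.052. Klf1, the factor of red cell precursors, had a mean within the range of receptor genes and differed by 0.14 ± 0.07 (limma, unadjusted p = 0.070, adjusted p = 0.931). Klf17, known from germ cells and the early embryo, was in that range too and differed by 0.043 ± 0.052. Klf14, a regulator of fat metabolism, and Klf16, a relative of Klf9, differed by -0.058 ± 0.045 and -0.027 ± 0.041.

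**Figure D3:**
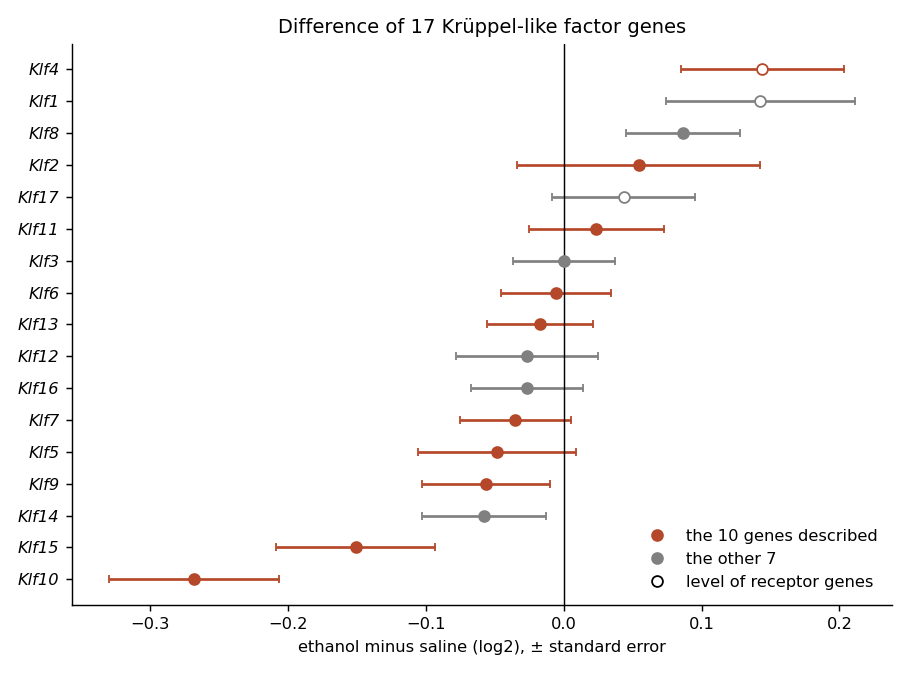
Ethanol minus saline difference (log2, ± SE) of the 17 Krüppel-like factor genes of the array, with the 10 genes described in red and the other 7 in grey. Klf10 (-0.27) and Klf15 (-0.15) lie farthest to the left and Klf4 (0.14) and Klf1 (0.14), both open symbols at the level of receptor genes, farthest to the right.

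The Sp factors, which share the zinc fingers and the GC box, had 0 of 8 genes past the threshold and a median difference of -0.023. Sp3 and Sp4, which had the highest means of the list, differed by -0.0087 ± 0.037 and -0.08 ± 0.08. Of 13 cofactors and ubiquitin ligases that act with the family, 0 passed, with a median of -0.014. Among them the corepressor Ctbp1 differed by 0.017 ± 0.037 and the acetyltransferase Crebbp by 0.0014 ± 0.058.

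Of 17 genes of transforming growth factor beta signalling, the pathway that induces Klf10 and Klf11, 2 were higher and 1 was lower at the unadjusted threshold, where 2.8% and 2.41% of all genes were. Smad7, the inhibitory Smad of the pathway, had values of 7.79, 7.76 and 7.80 in ethanol pools 1, 2 and 3, against 7.90, 7.90 and 7.88 in saline pools 1, 2 and 3. All ethanol pools lay below all saline pools, with a difference of -0.11 ± 0.04 (limma, unadjusted p = 0.018, adjusted p = 0.931), which did not pass without ethanol pool 2 (-0.10). The coreceptor Tgfbr3 had values of 8.13, 7.86 and 7.91 in ethanol pools 1, 2 and 3, against 7.83, 7.81 and 7.76 in saline pools 1, 2 and 3. Its difference was 0.17 ± 0.07 (limma, unadjusted p = 0.040, adjusted p = 0.931), and 0.085 without ethanol pool 1, the pool with the highest thalamus and choroid plexus markers. Tgfbr3 did not pass without ethanol pool 1 or without saline pool 1, 2 or 3. The ligand Tgfb3 differed by 0.11 ± 0.05 (limma, unadjusted p = 0.045, adjusted p = 0.931). Tgfb3 did not pass without ethanol pool 1 or 3 or without saline pool 1, 2 or 3. Neither Tgfbr3 nor Tgfb3 passed in the methods' t-test or when every row of the deposited values was fitted. Without saline pool 1, 2 or 3, 0 of the 17 genes passed and were higher. The list's median difference was -0.00025.

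Hormone genes bear on Klf9 and Klf15. Of 14 glucocorticoid-induced genes 0 passed, 9 had a lower and 5 a higher mean after ethanol, where 49.9% of all genes had a lower one, and the median difference was -0.067. Relative to saline, the list's average was -0.041, -0.037 and -0.038 for ethanol pools 1, 2 and 3, against 0.0072, 0.013 and -0.021 for saline pools 1, 2 and 3. Single genes of the list did not overlap between groups in 2 of 14 cases, where 10.4% of all genes did not overlap. The metallothioneins Mt2 and Mt1, which had the highest means of the list, differed by 0.09 ± 0.05 and 0.03 ± 0.07. Per1, a clock gene that glucocorticoids induce, named here after its values were seen, had values of 8.65, 8.64 and 8.68 in ethanol pools 1, 2 and 3, against 8.97, 8.71 and 8.72 in saline pools 1, 2 and 3. Its difference was -0.15 ± 0.07 (limma, unadjusted p = 0.065, adjusted p = 0.931). The saline pools of Per1 had an SD of 0.15, with pool 1 the highest, against 0.021 in the ethanol pools. Of 12 corticosteroid and thyroid hormone receptors and related genes 0 passed, with a median of -0.019. The thyroid hormone receptor Thra differed by -0.034 ± 0.038 and the thyroid hormone-responsive Nrgn, a calmodulin-binding protein of dendrites, by -0.0053 ± 0.038.

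Klf10, Klf4 and Klf2 are induced early by growth factors or activity in many cells. Of 16 activity-induced early genes, 14 had a lower mean after ethanol, where 49.9% of all genes did, and 1 (Arc) passed and was lower, as 2.41% of all genes were. The number that passed was 5 of 16 without ethanol pool 2, 2 of 16 without saline pool 3, and 0 of 16 without any other single pool. Arc, which regulates glutamate receptors at synapses, had values of 8.88, 9.20 and 8.66 in ethanol pools 1, 2 and 3, against 9.21, 9.39 and 9.07 in saline pools 1, 2 and 3. Ethanol pool 2 lay within the saline pools, and the difference was -0.31 ± 0.13 (limma, unadjusted p = 0.040, adjusted p = 0.931), -0.19 without ethanol pool 3. Arc was past the threshold neither by the methods' t-test, nor when every row was fitted, nor with array weights, nor without ethanol pool 1 or 3 or saline pool 1 or 2. The nuclear receptors Nr4a2 and Nr4a3 differed by -0.08 ± 0.08 and 0.076 ± 0.052. The list's median difference was -0.070, and relative to saline its average was -0.086, 0.073 and -0.22 for ethanol pools 1, 2 and 3, against 0.011, 0.058 and -0.069 for saline pools 1, 2 and 3. On the same scale Klf10 was at -0.25, -0.21 and -0.35 for ethanol pools 1, 2 and 3, against 0.11, -0.0049 and -0.10 for saline pools 1, 2 and 3. The lowest ethanol and the lowest saline pool were pool 3 of each group in Klf10 and in this list, but ethanol pool 2 lay above all saline pools in the list and below all of them in Klf10.

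Of 16 circadian clock genes, with which Klf10, Klf9 and Klf15 cycle in several tissues, 1 passed (6.25%), against 5.22% of all genes. Ciart, a repressor of CLOCK and BMAL1, had values of 8.70, 8.71 and 8.56 in ethanol pools 1, 2 and 3, against 8.87, 8.84 and 8.69 in saline pools 1, 2 and 3. Ethanol pools 1 and 2 lay just above saline pool 3. Its difference was -0.14 ± 0.06 (limma, unadjusted p = 0.049, adjusted p = 0.931), and the mean of its 2 probe sets differed by -0.026 and did not pass. Ciart also lost the threshold by the methods' t-test, after median centring or quantile normalization, above the level of receptor genes, in a fit to all rows, with array weights, and without ethanol pool 1 or 3 or saline pool 1 or 2. Its difference was -0.094 without ethanol pool 3 and -0.089 with array weights. Nr1d1, the repressor REV-ERB alpha, and Hlf, an output factor of the clock, differed by -0.032 ± 0.047 and 0.020 ± 0.045, and the list's median was -0.008. No source used here gives the time of day of the dissections.

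Of genes under the factors' control in other tissues, 0 of 7 genes under Klf2 and Klf4 in vessels passed (median 0.040), 0 of 8 under Klf15 in heart, liver or muscle (median -0.0073) and 0 of 10 axon growth genes (median 0.0053). The lipid receptor S1pr1 and the adhesion molecule Vcam1 differed by -0.022 ± 0.043 and 0.04 ± 0.08 in the first of these lists. Kcnip2, a potassium channel subunit that Klf15 activates in heart, and Prodh, an enzyme of proline breakdown, differed by -0.0068 ± 0.039 and -0.084 ± 0.047. The axon growth genes Stmn2 and Map1b, which regulate microtubules, differed by 0.0069 ± 0.039 and 0.0037 ± 0.056. Over all these lists together, 5 of 126 genes passed (3.97%), against 5.22% of all genes.

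Glial markers were compared as well, since several of the factors are expressed in glia. Of 15 oligodendrocyte and myelin markers 4 passed and were lower, where 2.41% of all genes were. These were the myelin proteins Opalin (-0.21 ± 0.07), Mal (-0.15 ± 0.05), Tspan2 (-0.13 ± 0.05) and Cldn11 (-0.12 ± 0.05), with a list median of -0.098 (2 of 15 passed in the methods' t-test and without saline pool 2, and 1 of 15 without ethanol pool 2 or saline pool 3). Relative to saline, the list's average was -0.064, -0.18 and -0.029 for ethanol pools 1, 2 and 3, against -0.056, 0.054 and 0.0014 for saline pools 1, 2 and 3. Ethanol pool 2, the lowest for myelin markers, was the highest of the ethanol pools for Klf10. All ethanol pools lay below the saline mean both for myelin markers and for Klf10. A relation between them was not tested. Of 11 astrocyte and 11 microglia markers 0 passed, with medians of -0.023 and -0.043. Aldoc and Slc1a2 of astrocytes differed by -0.034 ± 0.044 and -0.016 ± 0.036, and C1qb and Csf1r of microglia by 0.045 ± 0.067 and -0.073 ± 0.038. The thalamus and choroid plexus markers named by the same rule had differences of 0.76 (Ramp3), 0.67 (Prkcd), 0.59 (Tcf7l2) and 0.49 (Rgs16), and of 0.52 (Kl), 0.50 (Steap1) and 0.45 (Kcne2). Without ethanol pool 1 the difference of Klf10 was -0.28, that of Klf15 -0.12 and that of Klf4 0.13. Leaving out that pool does not remove the marker differences. Without it 8 of 14 thalamus markers still passed and were higher, and the choroid plexus average stayed at 0.66 in ethanol pool 3. The part of these markers in the values of the 3 genes was not tested.

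**Figure D4:**
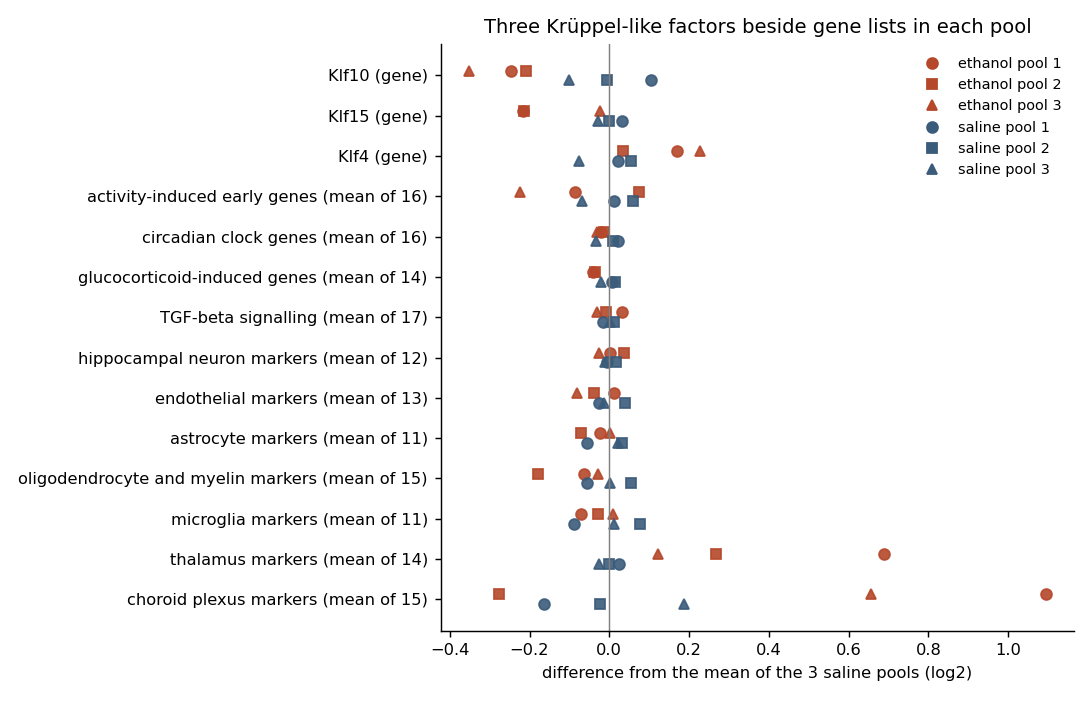
Difference of each pool from the mean of the 3 saline pools (log2) for Klf10, Klf15 and Klf4 and for the means of 11 gene lists, with ethanol in red and saline in blue. Klf10 has its ethanol pools between -0.35 and -0.21, while the thalamus and choroid plexus means spread to 0.69 and 1.09 in ethanol pool 1.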

How the data were processed

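RNA of 6 pools, 3 mice each, was hybridized to 6 arrays. Log2 values were deposited by the authors after RMA, a method that corrects background, gives the arrays a common distribution and merges the probes of each probe set, and were used as deposited. Which RMA software was run is not given in the sources used here. Array medians run from 5.84 to 5.89. The platform annotation gives 1 symbol to 21789 of 35556 probe sets, several to 1621 and no symbol to 12146. All 23410 probe sets with a symbol were tested and 19938 genes were read by their brightest probe set. Groups came from the sample labels.

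Ethanol was compared with saline by limma 3.58.1 in R 4.3.3 (lmFit and eBayes, two-sided, no covariate, no filter), after the methods' ANOVA, which for 2 groups is the methods' t-test. Precision is limited by the number of arrays (median SE 0.049). An exact permutation test of 3 against 3 cannot go below 0.1 and was not used. The 10 genes and the gene lists were chosen with earlier results of these data known. Named were all Krüppel-like factors and, per list, up to 4 passing genes with the largest difference, or the 2 with the highest mean where fewer than 2 passed. Per1, Prox1 and Spink8 were named outside this rule, for their values. The fit was tested on simulated data. Alternatives were a replicate block, the methods' t-test, quantile normalization, median centring, 2 filters on low levels, other probe set choices, an intensity trend, array weights, a 1.2-fold threshold and each array left out. Figures were drawn with matplotlib 3.10.9.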

Additional observations from a re-analysis of the deposited data

How the results depend on the processing

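Of 167 values of the 10 genes under the alternatives, 167 stayed within 1 SD between pools of the value given. That count was largely fixed in advance and is no measure of stability. Several alternatives alter the error and leave the difference as it was, and leaving out 1 of 3 pools cannot shift it by 1 SD. The methods' t-test lost Klf4 and Klf15 from the unadjusted threshold, and the replicate block, quantile normalization and use of all rows lost Klf4. The median of the 10 genes lay between -0.038 and -0.015 with 1 pool left out. The count of probe sets past the unadjusted threshold was 662 above the level of receptor genes, 494 above the median level and 1969 over all 35556 rows. The filters and the use of all rows also changed how many probe sets were tested, so these counts do not share a base. The count was 60 with a change over 1.2-fold, and 834 to 1484 with 1 pool left out. After adjustment 0 passed in each case. Of the list genes, 5 passed, against 8 with the replicate number as a block, 1 over all rows, 9 with array weights, 1 with a change over 1.2-fold and 4 to 12 with 1 pool left out (12 without ethanol pool 2 and 8 without saline pool 1). Klf1 passed with an intensity trend or array weights and without ethanol pool 3 or saline pool 1, and Klf8 passed in the methods' t-test, with array weights and without saline pool 1. Of 824 values of other named genes, 72 no longer passed, 9 newly passed and 0 passing values changed sign. Pools that share a number in their titles had correlations of -0.049, -0.022 and 0.059 between their deviations from the group means. Of the 3 ethanol pools, 0 correlated best with its own number. With 3 pools per group such correlations cannot exclude a pairing by litter. No source used here says what the number marks, so it was used only as an alternative block. The cause of the changes between alternatives was not tested.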
